A study of Rattus norvegicus with 2 samples.

Results

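The genes *Rgs4*, *Rgs5*, *Kcnj8*, *Abcc9*, *Gucy1a1*, *Gucy1b1*, *Higd1b* and *Ndufa4l2* were followed as 8 of the 25399 genes measured in cardiac cells of neonatal rats. They were chosen by their measured level, in unique molecular identifiers (UMIs) per 1000000 UMIs of the cluster (CPM), which was high in one cluster of cells, cluster 2, so their levels by cluster are given as a description with no test. Each symbol occurred in a single row of the gene list, and all 8 genes had UMIs in both libraries. Hearts of Sprague-Dawley rats aged 1 to 3 days, males and females pooled, were digested with trypsin, and intrinsic cardiac adrenergic (ICA) cells were enriched on a Percoll gradient. The cells then received saline (control) or 1 µg/mL lipopolysaccharide (LPS) for 2 h, and 1 droplet single-cell library was made per condition. The labels give no transgene or deletion in either group, and single rats cannot be told apart within a library.

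Mural cells, the pericytes and smooth muscle cells that wrap vessels, set vessel tone through receptors, ion channels and cyclic nucleotides, and 6 of the 8 genes belong to these systems. *Rgs4* and *Rgs5* encode regulators of G-protein signalling, which speed the switching-off of G proteins below vasoactive receptors. *Kcnj8* encodes the pore subunit Kir6.1 and *Abcc9* the sulfonylurea receptor SUR2 of the vascular ATP-sensitive potassium (KATP) channel, whose opening relaxes vessels. *Gucy1a1* and *Gucy1b1* encode the alpha and beta subunits of soluble guanylate cyclase, the receptor through which nitric oxide (NO) raises cyclic GMP. *Higd1b* encodes a small membrane protein with a HIG domain, and *Ndufa4l2* a mitochondrial protein related to the complex IV subunit encoded by *Ndufa4*. *Rgs5*, *Kcnj8*, *Abcc9*, *Higd1b* and *Ndufa4l2* are widely used to mark pericytes.

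Of the 8 genes, 6 lie in 3 neighbouring pairs. In the RefSeq gene table of GRCr8, matched by symbol, *Rgs4* and *Rgs5* were next to each other among protein-coding genes on chromosome 13, *Kcnj8* and *Abcc9* on chromosome 4, and *Gucy1a1* and *Gucy1b1* on chromosome 2. *Rgs4* and *Rgs5* lie on opposite strands, and the genes of the other pairs on the same strand. *Higd1b* on chromosome 10 and *Ndufa4l2* on chromosome 7 had no other of the 8 genes beside them. The 250 bases before the start of 4 genes are printed, chosen by how their levels differed between the libraries in cluster 2. There *Gucy1a1* and *Gucy1b1* differed in the same direction and *Rgs4* and *Rgs5* in opposite directions. This did not hold in every cluster. In the fibroblast cluster 1, *Rgs4* and *Rgs5* were both lower in LPS cells, with ratios of LPS to control of 0.557 and 0.627. The sequences are those of RefSeq, 5′ to 3′ on the gene's own strand, and capitals mark a hypoxia response core (ACGTG or GCGTG).
Rgs4 (GRCr8 chr13:84475885-84476134, minus strand): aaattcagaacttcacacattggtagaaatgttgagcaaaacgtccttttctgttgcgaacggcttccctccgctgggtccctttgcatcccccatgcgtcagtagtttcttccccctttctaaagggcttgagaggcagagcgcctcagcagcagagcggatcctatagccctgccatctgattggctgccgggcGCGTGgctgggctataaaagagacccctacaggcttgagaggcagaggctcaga
Rgs5 (GRCr8 chr13:84380827-84381076, plus strand): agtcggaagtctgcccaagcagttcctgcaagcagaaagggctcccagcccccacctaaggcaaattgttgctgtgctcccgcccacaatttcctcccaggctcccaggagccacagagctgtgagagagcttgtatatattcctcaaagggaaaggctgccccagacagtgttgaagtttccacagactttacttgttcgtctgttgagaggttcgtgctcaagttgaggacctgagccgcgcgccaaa
Gucy1a1 (GRCr8 chr2:169779624-169779873, minus strand): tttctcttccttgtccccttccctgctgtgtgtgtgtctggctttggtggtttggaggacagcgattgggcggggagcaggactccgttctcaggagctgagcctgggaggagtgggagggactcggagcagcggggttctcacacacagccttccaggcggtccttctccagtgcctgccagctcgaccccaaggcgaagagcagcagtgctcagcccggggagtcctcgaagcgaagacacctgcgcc
Gucy1b1 (GRCr8 chr2:169696988-169697237, minus strand): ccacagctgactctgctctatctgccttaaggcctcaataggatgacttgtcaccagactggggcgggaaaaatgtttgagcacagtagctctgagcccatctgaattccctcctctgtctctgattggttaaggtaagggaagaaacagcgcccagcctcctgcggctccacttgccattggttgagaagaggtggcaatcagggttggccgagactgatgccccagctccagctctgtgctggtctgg

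A promoter was found for 7 of the 8 genes, and *Higd1b* was not matched. Searched on both strands, the hypoxia response core occurred in 2 of the 7 windows, in *Rgs4* at 54 to 50 bases and in *Abcc9* at 208 to 204 bases before the start, and in 36.7% of 33469 promoters of the same length. The core of the RBPJ site, TGGGAA, which Notch signalling uses, occurred in 22.1% of the promoters and in none of the 7. A CArG box, the serum response factor motif of smooth muscle genes, occurred in 1.497% and in none of the 7. These letters are a description of the windows and not of binding. GC content of the 7 windows ranged from 54.4% in *Rgs4* and *Rgs5* to 71.2% in *Abcc9*, against a median of 51.2% over all promoters.

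The control library held 11531 cells with a median of 12479 UMIs, and the LPS library 12689 cells with a median of 9432. A total of 194 cell barcodes occurred in both libraries. The authors' clusters, numbered 0 to 10, were used as deposited. Cluster 2 carried no cell type name from the authors and held 1188 control cells (10.3%) and 1421 LPS cells (11.2%), with median depths of 6853.5 and 5082 UMIs per cell. Although the labels give the cells as ICA cells, the fibroblast cluster 0 alone held 57.2% and 55.4% of the cells. In cluster 2, the summed level of the catecholamine genes *Th*, *Dbh*, *Ddc* and *Pnmt* was 1.60 and 0.595 CPM, with *Pnmt* at 0.

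The name pericyte was checked with markers that are none of the 8 genes. Of 12 pericyte markers, 7 were highest in cluster 2 in each library: *Pdgfrb*, the receptor through which pericytes are recruited to vessels, *Notch3*, *Vtn*, *Cox4i2*, *Foxs1*, *Heyl* and *P2ry14*. *Pdgfrb* reached 504 CPM in control and 365 in LPS cells, and *Cox4i2* 277 and 294. *Notch3* and *Vtn* were low, at 5.77 and 3.63 in control cells. *Cspg4* and *Des* were highest in cluster 3, *Mcam* in cluster 4 and *Anpep* in cluster 6, and *Steap4* in cluster 8 of control and cluster 3 of LPS cells. Of 6 smooth muscle markers, all 6 were highest in cluster 2 in control and 5 in LPS cells, with *Acta2*, smooth muscle actin, at 1317 and 1315 and *Myh11*, smooth muscle myosin, at 11.3 and 8.81. Cluster 2 thus carried both pericyte and smooth muscle markers, none of these fixed markers was among its 10 leading genes, and it is called by its number here. The level of the 12 pericyte markers summed to 1535.2 CPM in control and 1457.5 in LPS cells of cluster 2. In cluster 3, where *Des* and *Cspg4* were highest, it summed to 1551.1 and 1501.6. The level of 8 fibroblast markers in cluster 2 summed to 4045 and 3201 CPM, against 9912 and 9449 in cluster 0 and 2673 and 2010 in cluster 4. In cluster 2, that of 7 endothelial markers summed to 134 and 97.7, and that of 8 macrophage markers to 9.40 and 3.81.

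Members of the set took 8 of the first 9 places among the genes that led cluster 2 by their fold over all other cells, among genes seen in at least 25% of its cells. The 8 genes were chosen by their level there, so this ranking follows from the choice and is a description only. A new clustering of each library that left the 8 genes out kept 95.9% (control) and 92.4% (LPS) of the cells of cluster 2 in one cluster. *Rgs5* led with 34.6-fold, followed by *Ndufa4l2* (31.3-fold), *Kcnj8* (21.6-fold) and *Higd1b* (17.6-fold). *Rgs4*, the lowest of the 8, stood at 9.52-fold. The one gene between them was *RGD1564664*, at 11.5-fold. The share of a gene's UMIs that came from cluster 2, in control and LPS cells, was 68.3% and 67.5% for *Ndufa4l2*, 66.4% and 74.1% for *Rgs5* and 44.6% and 32.3% for *Rgs4*.

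**Figure D1:**
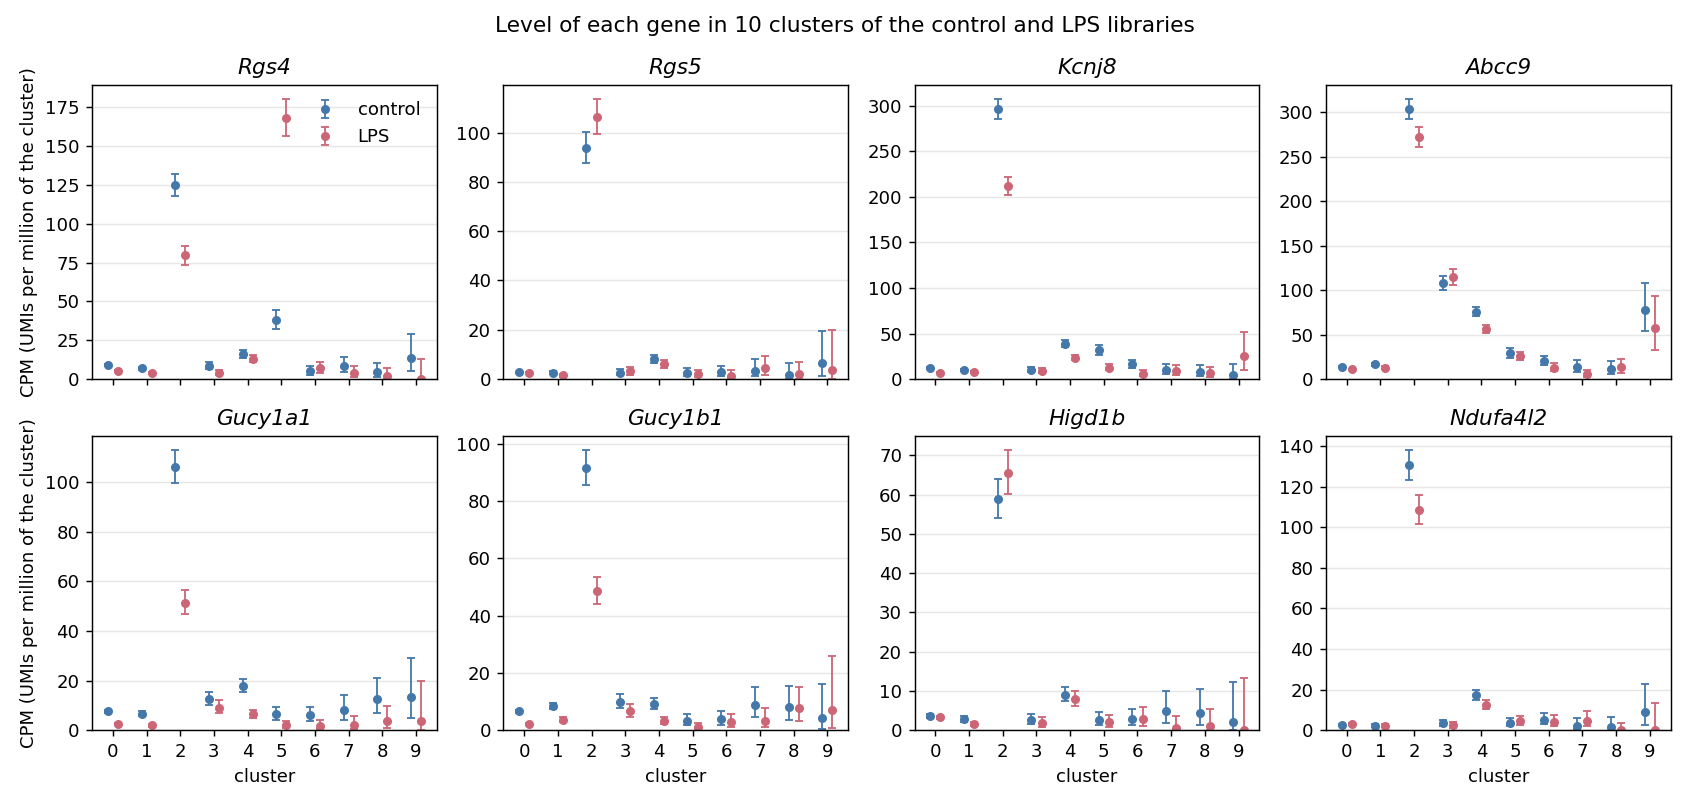
Level of each of the 8 genes in clusters 0 to 9 (x axis), in UMIs per 1000000 UMIs of the cluster (CPM, linear y axis, a scale for each gene), in the control and LPS libraries; points are 1 library each and bars are exact Poisson 95% intervals of counting error. Cluster 2 was highest throughout except for *Rgs4* in LPS cells, which was highest in cluster 5 (168 CPM), and *Abcc9* had a further level of 108 and 115 in cluster 3.

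Levels (CPM) are UMIs of the gene per 1000000 UMIs of the cluster in that library, with exact Poisson 95% intervals that cover counting error only. They are 3′ tag counts and were compared between cells, not between genes. Since there was 1 library per condition, no difference between LPS and control has a replicate check and none was tested. A difference also includes any in handling or depth.

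Among the regulators of G-protein signalling, *Rgs5* had the sharper pattern. It stood at 93.6 CPM (87.5 to 100) in control and 106 (99.6 to 114) in LPS cells of cluster 2. The next cluster in both libraries was cluster 4, which the authors named endothelial, with 8.09 and 6.06, and from there down the intervals of neighbours in the order overlapped. *Rgs4* stood at 125 (118 to 132) and 79.6 (73.7 to 85.9) in cluster 2. In control cells it was next highest in cluster 5, a second endothelial cluster led by *Selp* (P-selectin) and *Plvap* (a protein of endothelial fenestrae), at 38.1 (32.5 to 44.5), and then in cluster 4 at 16. In LPS cells this order was turned, with 168 (156 to 180) in cluster 5 and 79.6 in cluster 2. The UMI counts behind the values of cluster 5 were 162 and 765.

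The KATP channel subunits differed in where else they were found. *Kcnj8* stood at 296 (285 to 307) in control and 212 (202 to 222) in LPS cells of cluster 2, and in control cells at 38.9 in cluster 4 and 32.0 in cluster 5, whose intervals overlapped. *Abcc9* stood at 304 (293 to 315) and 273 (261 to 284) in cluster 2. Its second level was in cluster 3, named ICA and cardiomyocyte by the authors, with 108 (100 to 115) and 115 (106 to 124), where *Kcnj8* was at 10.2 and 9.31. Cells of cluster 2 thus held 0.975 *Kcnj8* UMIs per *Abcc9* UMI in control and 0.778 in LPS cells, and cells of cluster 3 0.0946 (0.0732 to 0.121) and 0.0811 (0.0597 to 0.108).

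The other KATP subunit genes, *Kcnj11* and *Abcc8*, were both higher in cluster 3 than in cluster 2. *Kcnj11*, which encodes Kir6.2, the pore of the cardiomyocyte channel, was highest in cluster 3 at 26.7 (23.0 to 30.8) and 21.5 (17.8 to 25.8) CPM and had 2 and 4 UMIs in all of cluster 2. *Abcc8*, which encodes SUR1, had 3 and 2 UMIs in cluster 2 and stood at 2.26 and 6.02 in cluster 3. Neither gene reached the minimum of 50 UMIs in cluster 2 for a comparison of the libraries.

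The guanylate cyclase subunits were both highest in cluster 2 and both lower there in LPS cells. *Gucy1a1* stood at 106 (99.5 to 113) in control and 51.4 (46.7 to 56.5) in LPS cells of cluster 2, and *Gucy1b1* at 91.5 (85.5 to 97.8) and 48.6 (43.98 to 53.5). In control cells *Gucy1a1* was next highest in cluster 4 (17.9) and *Gucy1b1* in cluster 3 (10.0), with intervals that overlapped those of the clusters ranked after them. The number of *Gucy1b1* UMIs per *Gucy1a1* UMI in cluster 2 was 0.863 (0.787 to 0.947) and 0.944 (0.823 to 1.08), and in cluster 0 0.876 (0.784 to 0.979) and 0.926 (0.744 to 1.15). In cluster 4 it was lower, at 0.513 (0.400 to 0.654) and 0.508 (0.321 to 0.789).

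*Higd1b* and *Ndufa4l2* had the same order of the leading clusters. *Higd1b* stood at 58.9 (54.1 to 64.1) and 65.6 (60.2 to 71.3) in cluster 2 and at 9.08 and 7.91 in cluster 4. *Ndufa4l2* stood at 130 (123 to 138) and 109 (102 to 116) in cluster 2 and at 17.2 and 12.5 in cluster 4.

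Levels outside cluster 2 were set against those in it, since free RNA from broken cells carries UMIs into all droplets of a library. In cluster 0, the level of the 8 genes was 2.16% (*Ndufa4l2*) to 7.48% (*Rgs4*) of that in cluster 2 in control and 2.33% (*Rgs5*) to 6.55% (*Rgs4*) in LPS cells. In cluster 4 it was 8.64% (*Rgs5*) to 25% (*Abcc9*) and 5.69% (*Rgs5*) to 20.7% (*Abcc9*), with the 8 genes spread widely in one cluster. In cluster 3 it was 2.60% (*Ndufa4l2*) to 35.4% (*Abcc9*) in control cells. Of the pericyte markers that are none of the 8 genes, 11 had at least 50 UMIs in cluster 2 of control cells. Their median was 18.8% (range 4.39% to 125%) in cluster 0 and 25.2% (12.3% to 190%) in cluster 4 of control cells. The 8 genes were chosen for a high level in cluster 2, which lowers their percents, so no difference from the markers was read. The part of free RNA in these levels was not tested.

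After every cell was thinned to 3000 UMIs, which left out 27 LPS cells of cluster 2 and no control cell, each gene was seen in at most 51.7% of the cells of cluster 2. In control and LPS cells of cluster 2, a UMI of *Abcc9* was seen in 51.7% and 50.1%, of *Kcnj8* in 51.3% and 42.0%, and of *Rgs4* in 29.1% and 20.01%. *Gucy1a1* was seen in 27.8% and 14.6%, and *Gucy1b1* in 23.7% and 12.3%. The difference between the libraries depended on depth for all 8 genes. For *Abcc9* it was -1.54 percentage points at 3000 UMIs and -11.53 without thinning. *Ndufa4l2* was seen in 24.4% and 24.3%, *Rgs5* in 21.7% and 22.7% and *Higd1b* in 14.6% and 17.7%. Without thinning all 3 were lower in LPS cells, at 40.4% and 34.0%, 37.5% and 33.0%, and 28.9% and 26.4%, so no order was read from these shares. Over the 8 genes the shares without thinning ran from 28.9% (*Higd1b*) to 77.2% (*Abcc9*) in control and from 21.9% (*Gucy1b1*) to 65.7% (*Abcc9*) in LPS cells. In the macrophages of cluster 6, which should lack these genes, the thinned shares were 0.356% to 4.27% in control cells at a median of 8846 UMIs, and at most 2.76% in LPS cells at a median of 6900.

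**Figure D2:**
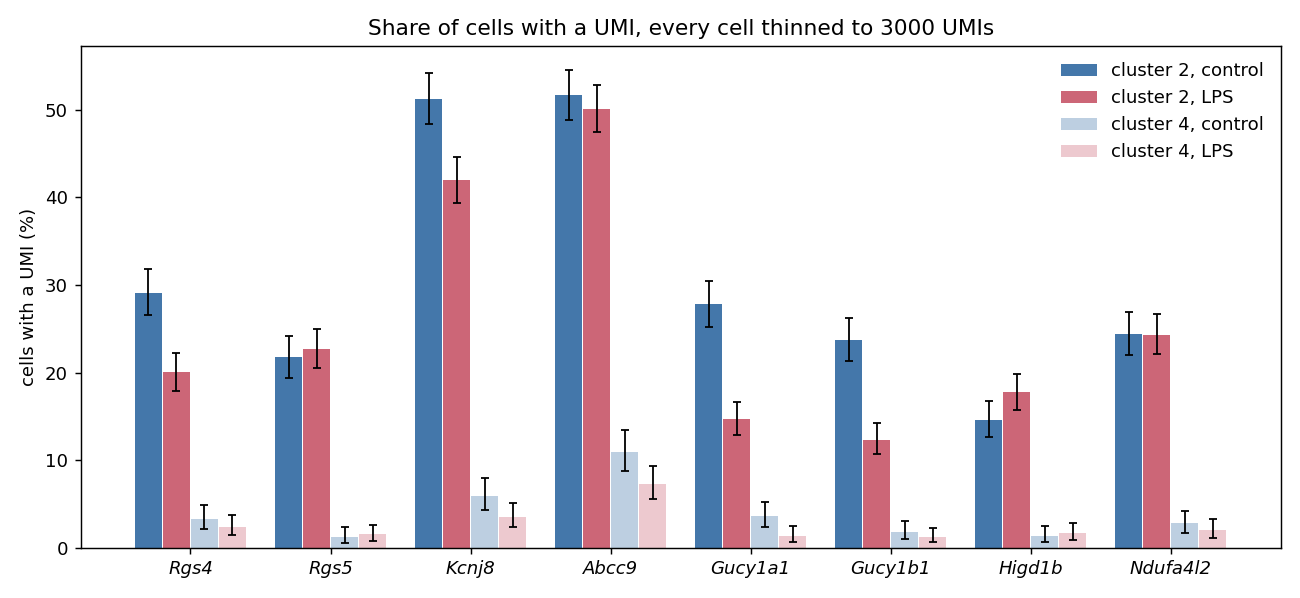
Share of cells with at least 1 UMI of each gene (y axis, percent) in cluster 2 and, paler, in cluster 4, after thinning every cell to 3000 UMIs; bars are 1 library each with Clopper-Pearson 95% intervals of counting error. In cluster 2 *Gucy1a1* stood at 27.8% in control and 14.6% in LPS cells, while *Rgs5* stood at 21.7% and 22.7%, and every gene was below 11% in cluster 4.

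Since the 8 genes were chosen for their level in cluster 2, their joint detection there is a description with no test. The shares expected from the single-gene shares were not computed, so no link between the genes beyond their levels was read. The 8 genes were found together in single cells almost only in cluster 2. At 3000 UMIs per cell, at least 3 of them were seen in 46.4% (43.5 to 49.3) of control and 35.3% (32.8 to 37.9) of LPS cells of cluster 2, against 2.90% and 1.51% in cluster 4. At least 5 were seen in 115 control cells (9.68%) and 71 LPS cells (5.09%) of cluster 2 and, over all other clusters, in 1 control and 1 LPS cell, both in cluster 4. All 8 were seen in 2 control cells and in 0 of 1394 LPS cells. A limit of 3 cells puts that share at up to 0.215%, and the Clopper-Pearson limit is 0.264%. None of the 8 was seen in 10.0% of control and 13.8% of LPS cells of cluster 2.

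**Figure D3:**
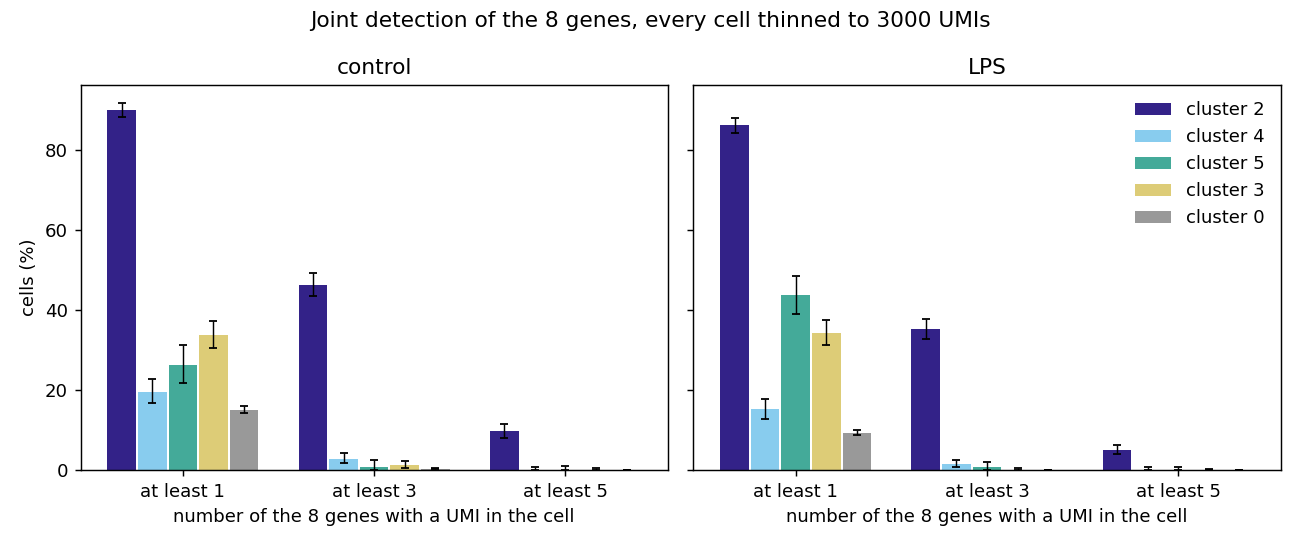
Share of cells (y axis, percent) in which at least 1, at least 3 or at least 5 of the 8 genes had a UMI, in clusters 2, 4, 5, 3 and 0 of each library, after thinning every cell to 3000 UMIs; error bars are Clopper-Pearson 95% intervals of counting error. At least 3 genes were seen in 46.4% of control and 35.3% of LPS cells of cluster 2, and in 2.90% or less of the cells of the other clusters drawn.

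Within cluster 2, each of the other genes was seen more often in cells with than without an *Rgs5* UMI, in both libraries. The intervals were apart for *Ndufa4l2* and *Abcc9* in both libraries, and for *Kcnj8* in LPS cells only. For *Rgs4*, *Gucy1a1*, *Gucy1b1* and *Higd1b* the intervals overlapped in both libraries. Overlap of the intervals of 2 shares does not place their difference within counting error, and no interval was computed for these differences. *Ndufa4l2* was seen in 38.0% (32.0 to 44.2) of the 258 control cells with and 20.6% (18.1 to 23.4) of the 930 without an *Rgs5* UMI, and in 34.5% and 21.3% of LPS cells. *Abcc9* was seen in 62.4% and 48.7% of control and 61.7% and 46.8% of LPS cells. *Gucy1a1* was nearly even in control cells, at 29.5% with and 27.3% without *Rgs5*. Cells with a *Myh11* UMI, a marker of contractile smooth muscle, were few, with 39 control and 31 LPS cells. *Kcnj8* was seen in 25.6% (13.04 to 42.1) of these against 52.1% (49.2 to 55.1) of the other control cells, and in 29.0% (14.2 to 48.0) against 42.3% (39.6 to 44.9) of LPS cells, where the intervals overlapped. *Abcc9* was seen in 35.9% (21.2 to 52.8) against 52.2% (49.3 to 55.1) and in 25.8% (11.9 to 44.6) against 50.7% (48.0 to 53.4), apart only in LPS cells. *Rgs4* was also lower in cells with a *Myh11* UMI, apart only in LPS cells, at 3.23% (0.0816 to 16.7) against 20.4% (18.3 to 22.6). *Gucy1a1* lay on the other side, at 38.5% against 27.4% and 19.4% against 14.5%, with overlapping intervals. Its partner *Gucy1b1* was lower in control and higher in LPS cells with a *Myh11* UMI. For *Gucy1b1*, *Rgs5*, *Higd1b* and *Ndufa4l2* the intervals overlapped in both libraries. The 75 control and 71 LPS cells with a UMI of the proliferation genes *Top2a* or *Mki67* had no common direction over the 8 genes. *Abcc9* was seen in 65.3% (53.5 to 76.0) against 50.8% (47.8 to 53.7) of control and 59.2% (46.8 to 70.7) against 49.7% (46.9 to 52.4) of LPS cells, and *Higd1b* in 6.67% (2.2 to 14.9) against 15.1% (13.04 to 17.3) and 19.7% against 17.6%.

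The comparison of the libraries asks how LPS relates to the level of these genes, with cluster 2 first. *Gucy1a1* was 2.06-fold lower in LPS than in control cells (ratio 0.485, 95% interval 0.432 to 0.544), *Gucy1b1* 1.88-fold lower (0.531, 0.471 to 0.598) and *Rgs4* 1.57-fold lower (0.637, 0.578 to 0.701). *Kcnj8* was 1.40-fold lower (0.716, 0.674 to 0.760). The remaining genes were nearer to 1, with ratios of 0.832 (0.763 to 0.907) for *Ndufa4l2* and 0.897 (0.849 to 0.948) for *Abcc9*. *Rgs5* was higher in LPS cells (1.14, 1.03 to 1.25), and the interval of *Higd1b* held 1 (1.11, 0.987 to 1.25). Thus *Rgs4* and *Rgs5*, neighbours in the genome and in function, stood on opposite sides, and cluster 2 held 1.34 *Rgs4* UMIs per *Rgs5* UMI in control (1.22 to 1.46) and 0.748 in LPS cells (0.676 to 0.828).

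Of the 8 genes, 3 were at least 1.5-fold lower (*Rgs4*, *Gucy1a1* and *Gucy1b1*) and 0 at least 1.5-fold higher in LPS cells of cluster 2. Of all 8930 genes with at least 50 UMIs there, 13.6% were at least 1.5-fold lower and 5.81% at least 1.5-fold higher. The median log2 ratio was -0.37 for the 8 genes and -0.12 for all 8930. Relative to that shift of all genes, *Gucy1a1* stood at a log2 ratio of -0.93, *Gucy1b1* at -0.80 and *Rgs4* at -0.53, which is inside 1.5-fold, and *Abcc9* at -0.04. The median depth per cell of cluster 2 was lower in LPS cells, as were the summed fibroblast and endothelial markers given above (1 of 8 fibroblast markers 1.5-fold higher and 1 lower, and 3 of 7 endothelial markers lower), and their part in these ratios was not tested. Of the 12 pericyte markers in cluster 2, 3 were at least 1.5-fold higher (*Steap4*, *Foxs1* and *P2ry14*) and 3 lower (*Notch3*, *Anpep* and *Heyl*), and of the 6 smooth muscle markers 2 were lower (*Cnn1* and *Lmod1*). For example, *Heyl*, a Notch target, stood at 50.5 and 26.7 and the transcription factor gene *Foxs1* at 48.3 and 74.3 CPM in control and LPS cells.

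**Figure D4:**
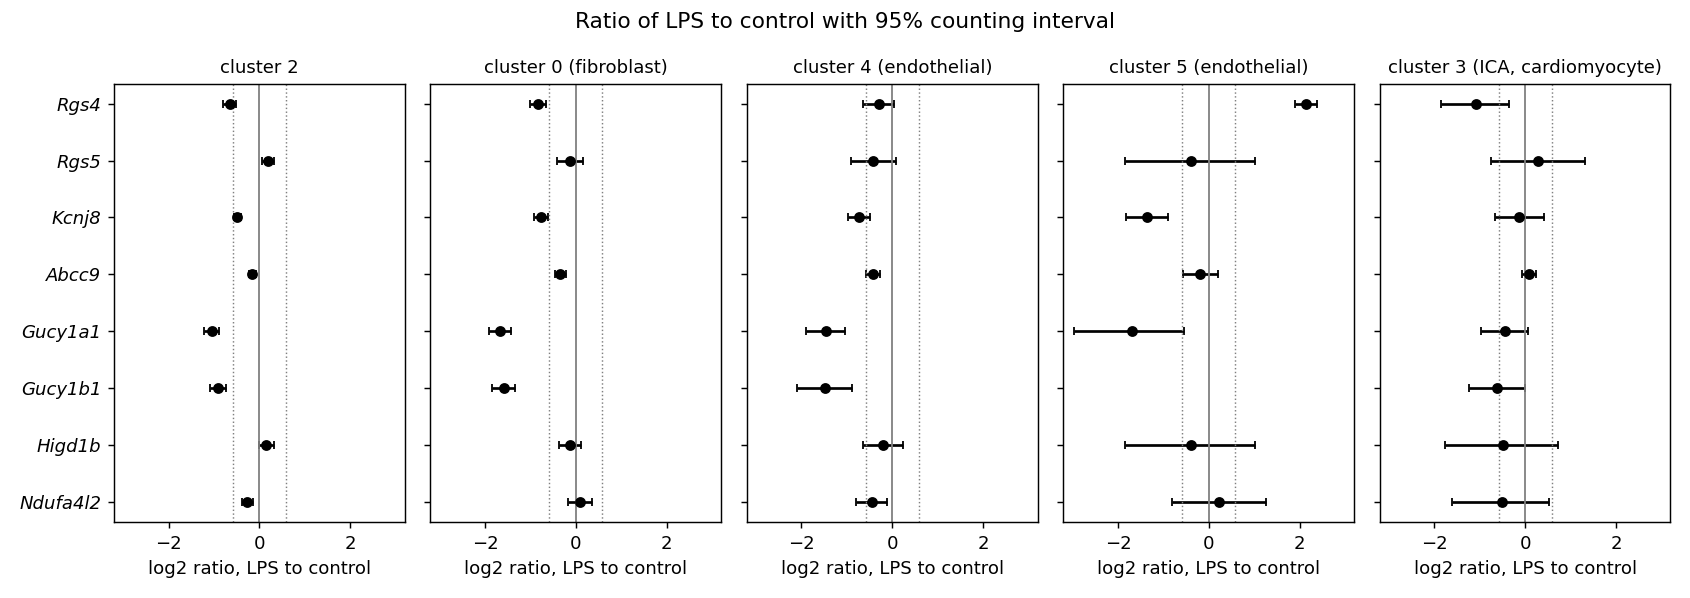
Log2 ratio of LPS to control (x axis) for each gene in 5 clusters, with exact conditional 95% intervals of counting error; each point compares 1 library with 1 library, dotted lines mark 1.5-fold, and genes with under 20 UMIs over both libraries are not drawn. *Gucy1a1* and *Gucy1b1* lay left of 0 in every cluster drawn in which they appear, and *Rgs4* lay at -0.65 in cluster 2 and 2.14 in cluster 5.

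The lower level of both guanylate cyclase subunits was also seen outside cluster 2. In cluster 0, *Gucy1a1* stood at 7.60 CPM in control and 2.39 in LPS cells (ratio 0.314, 0.264 to 0.371) and *Gucy1b1* at 6.66 and 2.21 (0.332, 0.277 to 0.395). In cluster 4 the ratios were 0.362 (0.268 to 0.483) and 0.359 (0.233 to 0.538). In cluster 1, a second fibroblast cluster, they were 0.293 (0.201 to 0.417) and 0.439 (0.332 to 0.576). The ratios were nearer to 1 in cluster 3, at 0.734 (0.508 to 1.05) and 0.655 (0.426 to 0.991). The ratio in cluster 0 was 0.647 times (0.530 to 0.791) that in cluster 2 for *Gucy1a1* and 0.625 times (0.507 to 0.770) for *Gucy1b1*, so the libraries differed less in cluster 2 than in cluster 0 beyond counting error. Between clusters 4 and 2 the intervals of the same quantity held 1, at 0.746 (0.550 to 1.01) and 0.675 (0.446 to 1.02). In the macrophages of cluster 6, which should lack these genes, *Gucy1a1* stood at 6.10 and 1.61 CPM (ratio 0.264, 0.0653 to 0.794). *Gucy1b1* stood there at 3.85 and 2.82. The levels in cluster 0 were thus low, and the part of free RNA in them and in their ratios was not tested.

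Over the 8 genes, cluster 0 had 4 at least 1.5-fold lower (*Rgs4*, *Kcnj8*, *Gucy1a1* and *Gucy1b1*) and 0 higher, where 19.7% of 12247 genes were lower and 6.92% higher by that fold. Cluster 4 had 3 lower (*Kcnj8*, *Gucy1a1* and *Gucy1b1*) and 0 higher, where 13.2% of 9492 genes were lower and 5.64% higher. In cluster 5 only 3 of the 8 genes, *Rgs4*, *Kcnj8* and *Abcc9*, had 50 UMIs. There *Kcnj8* was lower, at 32.0 and 12.5 CPM (ratio 0.391, 0.282 to 0.537), and *Rgs4* was higher, where 13.1% of 7824 genes were lower and 9.62% higher.

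Among clusters with at least 20 UMIs of a gene, *Rgs4* was the one gene of the set that was past 1.5-fold higher in one cluster and past 1.5-fold lower in others. In cluster 5 it stood at 38.1 CPM in the 350 control cells and 168 in the 443 LPS cells, and the ratio of these levels was 4.41 (3.72 to 5.26). At 3000 UMIs per cell, the share of cells with an *Rgs4* UMI there was 10.9% (7.80 to 14.6) in control and 36.0% (31.5 to 40.7) in LPS cells. The ratio was 6.92 times (5.70 to 8.41) that in cluster 2 and 5.41 times (4.07 to 7.18) that in the other endothelial cluster, cluster 4, where *Rgs4* stood at 16 and 13.05. *Rgs5* in the same cells of cluster 5 was at 2.59 and 1.98. The summed level of 12 pericyte markers in cluster 5 was 260 and 228, and that of 6 smooth muscle markers 257 and 174, both lower in LPS cells. *Mcam*, 1 of the 12 and highest in the endothelial cluster 4, stood in cluster 5 at 101.5% and 98.5% of its level in cluster 2. The part of RNA from mural cells in the *Rgs4* level of cluster 5 was not tested.

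The other genes of these pathways were followed in cluster 2, each list written with results of these data known. Of 17 gene symbols of NO and cyclic GMP signalling, 15 were in the gene list and 6 had at least 50 UMIs. Of the other 2, *Irag1* is a second symbol of *Mrvi1*, and *Prkg1* was not matched. Of these 6, 0 were higher and 1 was lower by 1.5-fold, *Pde3a*, a phosphodiesterase that breaks down cyclic AMP and is held back by cyclic GMP, at 7.58 and 2.50 CPM (ratio 0.330, 0.192 to 0.543). *Vasp*, a cytoskeletal substrate of the cyclic GMP-dependent kinase, stood at 172 and 158. *Pde1a*, a calcium-dependent phosphodiesterase, stood at 39.7 and 27.7, and *Mrvi1*, which encodes the kinase substrate IRAG, at 22.6 and 24.9. *Npr1* stood at 9.18 and 7.38, and *Nos3* at 4.80 and 3.21. In control cells *Npr1* was highest in cluster 4 (65.1) and *Nos3* in cluster 5 (144), both endothelial. The part of free RNA in their levels in cluster 2 was not tested. In the fibroblast cluster 0, *Pde3a* was also lower in LPS cells, at 3.07 and 0.434. The median log2 ratio of these 6 genes was -0.42, against -0.12 over all genes of the cluster. Among all genes of the cluster with the minimum, 5.81% were higher and 13.6% lower by 1.5-fold. *Gucy1a2*, the other alpha subunit, had 32 and 9 UMIs and *Nos2*, the inducible NO synthase, 1 and 40, both under the minimum.

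Of 19 further genes of the RGS family, 18 were in the gene list and 6 had the minimum, with 1 higher and 0 lower by 1.5-fold, against 5.81% and 13.6% of all genes of the cluster. Their median log2 ratio was -0.15. The one was *Rgs16*, at 3.203 and 11.7 CPM (ratio 3.64, 2.40 to 5.68). *Rgs10* stood at 53.4 and 36.6, *Rgs3* at 43.3 and 38.3, *Rgs19* at 36.1 and 52.9 and *Rgs12* at 9.40 and 6.43. Family members thus lay on both sides of 1.

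The respiratory chain relatives of *Higd1b* and *Ndufa4l2* lay close to 1. Of 10 HIG domain and complex IV genes, 9 were in the gene list and 7 had the minimum, with 0 past 1.5-fold in either direction and a median log2 ratio of 0.11. *Ndufa4* stood at 731 and 799 CPM. The complex IV subunit gene *Cox4i1* stood at 1455 and 1534 and *Cox4i2*, its lung isoform, at 277 and 294. *Cox6a1* stood at 1428 and 1604. Since *Ndufa4l2* is known as a target of the hypoxia-inducible factors (HIF), 10 other HIF targets were counted. Of the 9 with the minimum, 3 were higher and 0 lower by 1.5-fold, with a median log2 ratio of -0.09 against -0.12 over all genes. Higher by that fold were 5.81% of all genes and lower 13.6%. The 3 were *Egln3*, a HIF prolyl hydroxylase, at 9.08 and 22.5, *Vegfa*, the endothelial growth factor, at 5.23 and 11.1, and *Adm*, the vasodilator adrenomedullin, at 45.2 and 80.7. In control cells all 3 were higher elsewhere, *Vegfa* (116 CPM) and *Egln3* (68.2) in cluster 3 and *Adm* (248) in cluster 4. The part of free RNA in their levels in cluster 2 was not tested. *Ldha* (660 and 651) and *Pgk1* (343 and 296), enzymes of glycolysis, were within 1.5-fold. *Bnip3* was lower in LPS cells but also within 1.5-fold, at 56.8 and 44.4 (ratio 0.782, 0.683 to 0.894).

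The list of LPS-response genes was also written with results of these data known, so its count is a description only. Among all genes of cluster 2 with the minimum, 5.81% were at least 1.5-fold higher in LPS cells. Of 6 LPS-response genes, the 5 with the minimum were each at least 1.5-fold higher in LPS cells of cluster 2. They were the neutrophil chemokine gene *Cxcl1* (104 and 2994 CPM, ratio 28.8), the NF-kappaB inhibitor gene *Nfkbia* (80.1 and 765, 9.56), the adhesion molecule gene *Icam1* (18.3 and 146, 8.01), the monocyte chemokine gene *Ccl2* (1384 and 10490, 7.58) and the cytokine gene *Il6* (2.99 and 21.2, 7.09). In control cells *Ccl2* was highest in cluster 6 (5044 CPM), *Nfkbia* in cluster 4 (240), *Cxcl1* in cluster 9 (224) and *Icam1* in cluster 10 (27.8). *Il6* was highest in cluster 2. The part of free RNA in these levels was not tested.

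The genes with the most similar pattern over the 22 classes of cells, 11 clusters in 2 libraries, were sought among 9896 genes with at least 500 UMIs by Pearson's r of log2(CPM + 1). The classes share libraries and depth, and r is given as a description. *Rgs4* was nearest to *Nr2f2*, a venous transcription factor (r = 0.93), and then to *Rasd1* and *Bcl2*. In cluster 5, where *Rgs4* was higher in LPS cells, *Nr2f2* was lower, at 43.5 CPM (37.5 to 50.3) in control and 31.6 (26.7 to 37.3) in LPS cells. *Rgs5* was nearest to *Errfi1* (0.89), *Cox4i2* (0.88) and *Sept4* (0.84). *Kcnj8* was nearest to *RGD1564664* (0.82), *Sept7* and *Actg2*, and *Abcc9* to *Lpl*, lipoprotein lipase (0.87), *Rhbdl3* and *Ednra*, the endothelin receptor A. *Gucy1a1* was nearest to *Arvcf* (0.85), *Plekhh3* and *Ajuba*, and *Gucy1b1* to *Lmod1*, a smooth muscle actin nucleator (0.84), *Prph* and *Ednra*. *Higd1b* and *Ndufa4l2* shared *Emid1* as their nearest gene (0.94 and 0.95), followed by *Prph* and *RGD1564664* for the one and *Thy1* and *Syt5* for the other. Among the 8 genes themselves, r ran from 0.52 between *Rgs4* and *Gucy1b1* to 0.92 between *Higd1b* and *Ndufa4l2*, and was 0.83 between *Gucy1a1* and *Gucy1b1*.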

How the data were processed

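Droplet single-cell libraries (10X Genomics 3′, v2) were made from control and LPS cells, 1 per condition. The authors deposited raw UMI counts per gene and cell, whole numbers without normalization, with a cluster and cell type for each cell. The submitters' processing notes name Cell Ranger 2.2.0 and Seurat 2.3.4, and the study's methods describe clustering after canonical correlation analysis of both libraries. The genome build and annotation of the counts are not given in the sources used here. Clustered cells were used as deposited (11529 control and 12681 LPS cells).

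Counts were summed by cluster and library and divided by the UMIs of the class, per 1000000 (CPM), with scipy 1.17.1, numpy 2.4.6 and pandas 2.3.3 under Python 3.11.15. The 95% intervals are Poisson (levels, exact), conditional (ratios, exact) and Clopper-Pearson (shares), and those for the ratio of 2 ratios use a normal approximation on the log scale. Cells were thinned to 3000 UMIs without replacement. Ratios between libraries were counted past 1.5-fold over genes reaching 50 UMIs in the class. No test was possible with 1 library per condition. No doublet caller was run. As an alternative, the 8% of cells of highest UMI total were removed. The counting was tested on simulated Poisson counts, the model that the intervals assume. These counts held no spread between cells and no free RNA, so they cannot check either.

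The 8 genes, the pathway and marker lists and the rule for named genes were chosen with earlier results of these data known. By that rule the text names the 8 genes, the 3 genes most like each, and per pathway list up to 4 of highest CPM in cluster 2 and up to 4 past 1.5-fold. *Heyl*, *Foxs1*, *Gucy1a2*, *Nos2* and the genes named in the splits of cluster 2 were singled out after their values were seen. *Nos3* and *Il6* were also named outside that rule. Promoters and gene order came from RefSeq (GRCr8), matched by symbol. The gene identifiers of the 8 genes did not match those given there, so the match rests on the symbol alone. Where a symbol had several promoter entries, the first was used.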

Additional observations from a re-analysis of the deposited data

Results flagged for a closer look

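*Rgs4* differed between the libraries in opposite directions in 2 clusters. The log2 ratio of LPS to control was 2.141 in the endothelial cluster 5 and -0.6505 in cluster 2, each from 1 library per condition, so the difference was not tested over replicates. Counting error alone gave an interval of 5.70 to 8.41 for the ratio in cluster 5 over that in cluster 2. Cells of cluster 5 had a median depth of 10172 UMIs in control and 8998 in LPS cells, and those of cluster 2 of 6853.5 and 5082. The part of depth in the difference was not tested.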

How the results depend on the processing

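No paired analysis was possible because the conditions have a single library each, and no replicate could be left out. Over 5 alternatives, all 40 log2 ratios of the 8 genes in cluster 2 kept the sign of the main value, and 3 genes stayed at least 1.5-fold lower except when the libraries were scaled by the median ratio of all genes, which gave 2. That scaling moved the log2 ratio of *Kcnj8* to -0.3631 and of *Abcc9* to -0.03808. No cell of clusters 0, 2 or 5 had over 20% mitochondrial UMIs, so that filter changed nothing there. In cluster 3, 286 of 836 control and 290 of 929 LPS cells were over that limit. The values of cluster 3 were not computed again without them. A new clustering of each library without the 8 genes held 95.9% of control and 92.4% of LPS cells of cluster 2 in one cluster. For cluster 0 in LPS cells it held 56.0%. The values for *Rgs4* in cluster 5 and for *Gucy1a1* and *Gucy1b1* in cluster 0, with alternatives chosen after seeing the data, stayed within the counting interval. The mean of the cells' own CPM raised control levels in cluster 2 beyond counting error to 138.3 for *Rgs4*, 316.5 for *Kcnj8*, 317.4 for *Abcc9*, 115.6 for *Gucy1a1* and 98.8 for *Gucy1b1*.

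Depth changed the shares. The difference of LPS and control shares in cluster 2, without thinning, was -20.29 percentage points for *Rgs4*, -4.453 for *Rgs5*, -13.62 for *Kcnj8*, -11.53 for *Abcc9*, -25.75 for *Gucy1a1*, -24.49 for *Gucy1b1* and -6.414 for *Ndufa4l2*, and for *Higd1b* it reversed to -2.482 from 3.157. For *Rgs5* it also turned, from 0.951, whose interval held 0, to -4.453 and, at 1500 UMIs, -0.744. Thinned to 1500 UMIs it was -7.17 for *Gucy1a1* and -7.624 for *Gucy1b1*. Of the 24 pairs of a gene of the set and a gene most like it, 11 remained with a pseudocount of 10 CPM.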
